A study of Oryza sativa with 12 samples.

Results

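The nitrogen uptake and assimilation genes described here are 9 rice genes, chosen by their identifiers: the ammonium transporters AMT1;1 (Os04t0509600), AMT1;2 (Os02t0620500) and AMT1;3 (Os02t0620600), the cytosolic glutamine synthetases GS1;1 (Os02t0735200) and GS1;2 (Os03t0223400), the glutamate synthase NADH-GOGAT1 (Os01t0681900), the nitrate transporters NRT1.1B (Os10t0554200) and NRT2.3 (Os01t0704100), and NAR2.1 (Os02t0595900), a partner protein of NRT2 transporters. Of the 9, 8 had rows in the SNP call table, with 47 of its 249857 sites in 11 of its 28182 transcripts, and AMT1;1 had none. The chromosomes, read from the identifiers, are 1 for NRT2.3 and NADH-GOGAT1, 2 for AMT1;2, AMT1;3, GS1;1 and NAR2.1, 3 for GS1;2, 4 for AMT1;1 and 10 for NRT1.1B.

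The RNA came from roots of the hybrid Xieyou9308, of its male parent R9308 and of its female parent Xieqingzao B, at heading and at tillering, with 2 roots per genotype and stage and 12 samples in all. Xieyou9308 is an F1 hybrid rice, R9308 a restorer line with some japonica background, and Xieqingzao B an indica line. All plants grew in the field first and then on floating foam over a nutrient solution whose nitrogen content is not given in the sources used here. Roots were sequenced as separate samples, but the table merges the reads of both roots of a genotype and stage into 1 value, called a pool here, so it holds no replicate spread, and every interval below is a 95% interval for counting error alone. No removal of PCR copies is described in the sources used here, so copies of a molecule may be counted as separate reads. In whole roots, fewer cells that express a gene cannot be told apart from less RNA per cell, and the root label was not checked against marker genes, because the table pairs its identifiers with no annotation.

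Rice roots take up nitrogen as ammonium, through AMT transporters, and as nitrate, through the NRT1 and NRT2 families. NRT2 proteins carry nitrate at low outside concentrations and several of them need NAR2.1 to work at the cell membrane, whereas NRT1.1B is a nitrate transporter that also acts as a nitrate sensor. Ammonium is then bound into glutamine by glutamine synthetase and passed on to glutamate by glutamate synthase, the GS-GOGAT cycle.

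For each site the table lists the called base or bases and the number of supporting reads, called depth here. A transcript's depth was the mean over its sites that were called in all 6 pools, a condition that 23 of the 47 sites met, and ratios were taken after each pool was divided by its total over all such sites, between 6038471 and 8462795 reads. Of the 11 transcripts, 10 passed the minimum of 10 reads in the mean over pools, and the eleventh, NRT1.1B Os10t0554200-02, had no site called in all 6. NRT2.3 Os01t0704100-01 and AMT1;2 reached this mean only through their heading pools. At tillering they had 3.67 to 8 and 2 to 11 mean reads. Both are among the transcripts called higher at heading below, so the minimum favoured that direction for them. A ratio was called when it was at least 2-fold, and because no test is possible on single pools, the share of all 16732 transcripts past 2-fold is given as the background.

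Several substitutions carry the results and are written with the Nipponbare base first, the position counted from the first base of the transcript, and the base of the line. Both parents differed from Nipponbare in the same way at 11 of the 47 sites (23.4%, against 17.1% of all sites), among them C208A in NADH-GOGAT1, G161C, G167A, T1627A and G1679A in AMT1;3, T617C and G1500A in NAR2.1, A1961G in NRT2.3 Os01t0704100-01, A1869C in NRT1.1B, and A1265G and its partner A1081G in Os02t0735200. The parents had different single bases at 1 stage or more at 12 sites (25.5%, against 23.7% of all sites), 6 of them in NAR2.1. Position 852 of NAR2.1 is counted through 1 Xieqingzao B read at tillering, and at heading both parents listed C there. In NAR2.1, R9308 carried G158C and T931C, and Xieqingzao B carried A470G and G502T. In Os02t0620600, R9308 carried T800G and Xieqingzao B G1127A, and at these 2 sites and at positions 158 and 931 of NAR2.1 the difference was listed at both stages. Different single bases in the parents were not listed in NRT2.3, NRT1.1B, NADH-GOGAT1 or GS1;2.

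Part of the sites say little about the lines. Positions 1 to 10 of a transcript held 8 of the 47 sites (17.0%, against 3.32% of all sites), 5 of them in AMT1;2, 2 in NAR2.1 and the only site of GS1;2. At position 4 of this gene the second base was A4C in R9308 at heading and A4T in Xieqingzao B at both stages, while only the reference base was listed in Xieyou9308. None of these end sites was used for allele shares. Only the site of GS1;2 was called in all 6 pools and entered the main depth ratios, and all values of GS1;2 rest on it.

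At heading, the nitrate transporter NRT2.3 was deeper than at tillering in all 3 genotypes, and its partner NAR2.1 was deeper in Xieyou9308 and R9308. The ammonium transporter AMT1;2 was also deeper at heading in all 3, whereas NRT1.1B was shallower in Xieyou9308 and Xieqingzao B. By the mean over sites called in all pools, the enzymes GS1;1, GS1;2 and NADH-GOGAT1 and the transporter AMT1;3 stayed within 2-fold in every genotype, with single sites past 2-fold in GS1;1 and AMT1;3. Of the 10 transcripts, 4 were at least 2-fold higher at heading in Xieyou9308 (background 16.6%), 4 in R9308 (8.21%) and 3 in Xieqingzao B (11.1%). In each genotype these include both transcripts of NRT2.3, which are not independent, so fewer genes than transcripts were higher. Both transcripts of GS1;1 are also counted among the 10. At least 2-fold lower were 1 in Xieyou9308 (background 19%), 0 in R9308 (17.2%) and 1 in Xieqingzao B (13.6%). The median log2 ratio over the 10 was 0.66, 0.67 and 0.29 in Xieyou9308, R9308 and Xieqingzao B, against -0.09, -0.09 and 0.06 over all transcripts.

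NRT2.3 has 2 transcripts in the table. Position 171 of Os01t0704100-02 had 442 reads at heading and 4 at tillering in Xieyou9308, 419 and 56 in R9308, and 275 and 46 in Xieqingzao B. Position 244 had 341 and 3 reads in Xieyou9308, 351 and 48 in R9308, and 256 and 39 in Xieqingzao B. At both sites the 3 heading pools lay above all 3 tillering pools, and the hybrid was the lowest pool at tillering. Both sites use the same pools, and the share of all sites with such a separation was not computed. The log2 ratio of heading over tillering was 6.82 in Xieyou9308 (5.26 to 8.51), 3.30 in R9308 (2.88 to 3.75) and 2.46 in Xieqingzao B (2.01 to 2.99), that is 113-fold, 9.86-fold and 5.50-fold.

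The ratio of the hybrid stands on 3 and 4 reads at tillering. Both sites lie near the transcript start, and the part of uneven coverage along transcripts in that pool was not tested. The other transcript, Os01t0704100-01, had 86 reads at heading and 5 at tillering at position 1961 in Xieyou9308, 101 and 8 in R9308, and 67 and 6 in Xieqingzao B. At its position 1841 the hybrid had 273 and 18 reads and Xieqingzao B 258 and 24, with 391 reads in R9308 at heading and no call in R9308 at tillering. The call from the 18 reads of the hybrid had a quality score of 4.12. The log2 ratio of this transcript was 3.18 in Xieyou9308 (1.57 to 5.01), 2.61 in R9308 (1.5 to 3.94) and 2.42 in Xieqingzao B (1.02 to 4.12). Positions 73 and 135 of this transcript had 2 to 14 reads in every pool, and in R9308 they had fewer reads at heading, with 2 against 5 and 7 against 11.

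Sites of the 2 NRT2.3 transcripts are not independent. The positions 1152, 1841 and 1961 of Os01t0704100-01 and 1062, 1751 and 1871 of Os01t0704100-02 lie 90 bases apart pair by pair with the same reference base, and reads from shared sequence can be given to either transcript. Quality scores at heading were between 41 and 66 at position 1152 and between 3.54 and 29 at its partner, position 1062. Position 1961 had 210 in Xieyou9308, 203 in R9308 and 213 in Xieqingzao B, while its partner, position 1871, was called at heading only, with 6.19 in Xieyou9308 and 6.97 in R9308 from 16 and 29 reads. Positions 171 and 244, which have no partner, had 222 in all heading pools. Position 351 of Os01t0704100-01 was called only at heading, with 81 reads in Xieyou9308, 106 in R9308 and 57 in Xieqingzao B.

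NAR2.1 was read at 6 sites called in all pools. Position 1500, the deepest, had 1982 reads at heading and 337 at tillering in Xieyou9308, 3137 and 426 in R9308, and 1381 and 735 in Xieqingzao B. Position 158 had 673 and 16 reads in Xieyou9308, 349 and 174 in R9308, and 481 and 244 in Xieqingzao B. Every one of the 6 sites was deeper at heading in Xieyou9308 and in R9308. The log2 ratio was 3.03 in Xieyou9308 (2.64 to 3.43), 3.08 in R9308 (2.78 to 3.40) and 0.72 in Xieqingzao B (0.45 to 1.0), where it did not reach 2-fold.

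Of the 6 sites of NAR2.1, the 4 between positions 470 and 931 showed the widest gap between the parents at heading, though not at tillering. At position 470 the hybrid had 91 reads at heading and 4 at tillering, R9308 171 and 8, and Xieqingzao B 12 and 11. At position 617, where both parents have the same base, the hybrid had 89 and 7 reads, R9308 95 and 8, and Xieqingzao B 20 and 15. The log2 ratio at position 617 was 3.68 in Xieyou9308, 3.98 in R9308 and 0.23 in Xieqingzao B. The depth of the 4 sites in Xieqingzao B lay between 10 and 20 reads at heading and between 5 and 15 at tillering. Positions 852 and 954 were not called in every pool and had 1 to 18 and 1 to 74 reads where they were. Without position 1500 the ratio of the whole transcript was 4.87 in Xieyou9308, 2.48 in R9308 and 0.70 in Xieqingzao B.

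**Figure D1:**
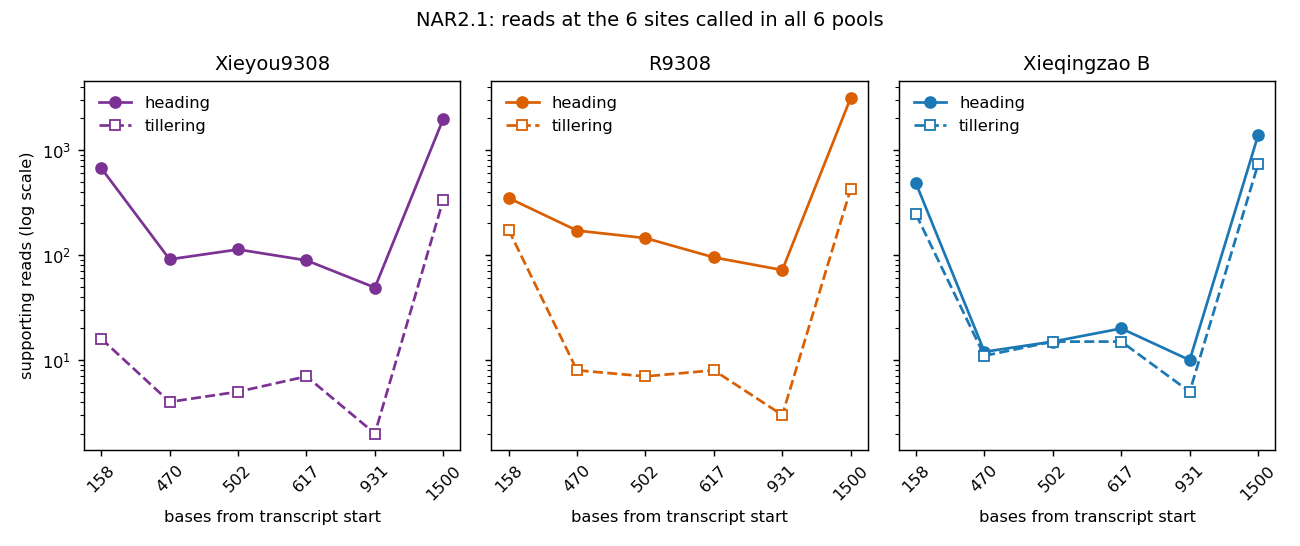
Supporting reads (log scale) at the 6 sites of NAR2.1 called in all 6 pools, by bases from the transcript start, with heading as filled circles and tillering as open squares and lines that only join sites of 1 pool. In Xieyou9308 and R9308 every site was deeper at heading, whereas in Xieqingzao B positions 470 and 502 had 12 and 15 reads at heading and 11 and 15 at tillering.

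NRT1.1B had 1 site in all pools, position 1869, with the same base in both parents. It had 5 reads at heading and 21 at tillering in Xieyou9308, 16 and 23 in R9308, and 17 and 45 in Xieqingzao B. The heading pools were the lower ones in each genotype. The log2 ratio was -2.06 in Xieyou9308 (-3.82 to -0.61) and -1.59 in Xieqingzao B (-2.49 to -0.75), and -0.11 in R9308 (-1.13 to 0.87) after scaling. Position 678 of the same transcript was not called in the hybrid and had 18 reads at heading and 24 at tillering in Xieqingzao B and 33 at tillering in R9308. Its quality scores in these pools were 4.76, 9.51 and 10.4. Position 1072 of Os10t0554200-02, the only site of that transcript, had 13 reads at heading in R9308 and 20 and 27 at heading and tillering in Xieqingzao B.

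AMT1;2, an ammonium transporter, also rested on 1 site in all pools. Position 519 had 14 reads at heading and 2 at tillering in Xieyou9308, 46 and 11 in R9308, and 66 and 4 in Xieqingzao B. The heading reads were above the tillering reads in each genotype, with a log2 ratio of 2.82 in Xieyou9308 (0.70 to 6.0), 2.48 in R9308 (1.51 to 3.58) and 3.86 in Xieqingzao B (2.44 to 5.78). Position 552, which was not called in the hybrid at tillering, had 42 reads at heading and 9 at tillering in R9308 and 70 and 3 in Xieqingzao B.

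The other ammonium transporter, AMT1;3, was measured at 6 sites. Its mean depth was 28.5 reads at heading and 15.8 at tillering in Xieyou9308, 61.3 and 45.2 in R9308, and 123 and 61 in Xieqingzao B. The log2 ratio of heading over tillering was 0.86 in Xieyou9308 (-0.12 to 1.8), 0.85 in R9308 (0.27 to 1.44) and 0.83 in Xieqingzao B (0.37 to 1.30), under 2-fold in each. The sites did not move alike in the hybrid, where the log2 ratio was 2.3 at position 161, 2.71 at position 1127, -1.21 at position 1627 and -0.27 at position 1679. With the median depth per site in place of the mean, the ratio was 1.09 in Xieyou9308 and 1.08 in R9308, past 2-fold, and 0.80 in Xieqingzao B.

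The enzymes of the GS-GOGAT cycle had mean ratios under 2-fold. GS1;1 was the deepest of the genes, with more reads in the mean over pools than 99.3% (Os02t0735200-01) and 99.5% (Os02t0735200-02) of all transcripts. Position 1081 of Os02t0735200-02 had 868 reads at heading and 1107 at tillering in Xieyou9308, 602 and 1286 in R9308, and 1078 and 1220 in Xieqingzao B. The heading pools were again the lower ones, with log2 ratios of -0.34 in Xieyou9308 (-0.47 to -0.21), -0.68 in R9308 (-0.82 to -0.54) and -0.36 in Xieqingzao B (-0.48 to -0.24). Its partner site, position 1265 of Os02t0735200-01, lies 184 bases further on with the same reference base and is not independent of it. Position 1277 of Os02t0735200-02 was past 2-fold in the hybrid, with 1208 reads at heading and 2657 at tillering, a log2 ratio of -1.13, and over all sites called in both pools the ratio of the transcript was -0.86. Position 619 of Os02t0735200-01 was called only in Xieqingzao B, with 835 reads at heading and 1024 at tillering, and its partner, position 435 of Os02t0735200-02, had 891 and 962 there and 777 in the hybrid at tillering, with a quality score of 6.2. Position 155 of Os02t0735200-01 had 4 to 15 reads where it was called.

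NADH-GOGAT1, which makes glutamate from glutamine, had 1 site. Position 208 had 245 reads at heading and 293 at tillering in Xieyou9308, 209 and 315 in R9308, and 252 and 244 in Xieqingzao B. The log2 ratios were between -0.25 and -0.14, with intervals that all reached above 0. The glutamine synthetase GS1;2 had 15 reads at heading and 11 at tillering in Xieyou9308, 20 and 19 in R9308, and 24 and 27 in Xieqingzao B and its log2 ratios had intervals that all held 0.

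**Figure D2:**
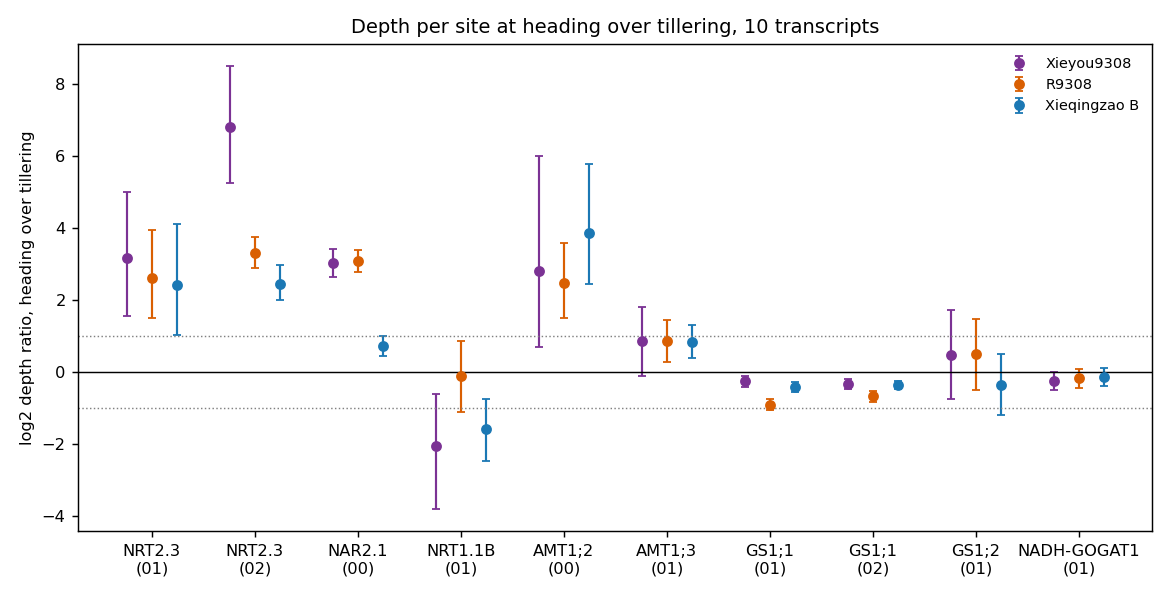
Log2 ratio of depth per site at heading over tillering for 10 transcripts (last digits of the identifier in brackets) in Xieyou9308, R9308 and Xieqingzao B, with 95% counting intervals as bars and dotted lines at 2-fold. NRT2.3 and AMT1;2 lie above 2-fold in all 3 genotypes, NAR2.1 in Xieyou9308 and R9308, and GS1;1 and NADH-GOGAT1 between the dotted lines.

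Between the parents, most of the transcripts were within 2-fold. At tillering 1 of the 10 was at least 2-fold higher in R9308 than in Xieqingzao B (background 10.3%) and 2 were at least 2-fold lower (6.03%). At heading 1 was higher (11.8%) and 0 were lower (13.5%). The single higher one at tillering was AMT1;2, with 11 reads in R9308 and 4 in Xieqingzao B and an interval that held 0 (log2 1.06, -0.69 to 3.17). NRT1.1B, with 23 and 45 reads at tillering, had a log2 ratio of -1.37 (-2.16 to -0.61), and at heading, with 16 and 17 reads, 0.11 (-0.97 to 1.19). At tillering its position 678 had 33 reads in R9308 and 24 in Xieqingzao B, a log2 ratio of 0.06, and with both sites the ratio was -0.74, under 2-fold. The quality scores of position 678 at tillering were low, 10.4 in R9308 and 9.51 in Xieqingzao B.

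NAR2.1 was the gene whose parental ratio had opposite signs past 2-fold at the 2 stages. Its mean depth at heading was 662 reads in R9308 and 320 in Xieqingzao B, a log2 ratio of 1.25 (1.05 to 1.45), and at tillering 104 and 171, a ratio of -1.11 (-1.48 to -0.75). At heading the sites did not move alike. The log2 ratio of R9308 over Xieqingzao B was -0.26 at position 158, 4.03 at position 470, 3.47 at position 502, 2.45 at position 617, 3.05 at position 931 and 1.38 at position 1500. At tillering all 6 were negative, between -1.5 and -0.86. Without position 1500 the heading ratio was 0.84, under 2-fold, and the tillering ratio -0.95.

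AMT1;3 was shallower in R9308 than in Xieqingzao B at both stages, with log2 ratios of -0.81 at heading (-1.28 to -0.36) and -0.83 at tillering (-1.42 to -0.26). NRT2.3 Os01t0704100-02 was at 0.74 at heading (0.50 to 0.96) and -0.11 at tillering (-0.70 to 0.53). For GS1;1 the ratio at heading was -0.64 (Os02t0735200-02) and -0.68 (Os02t0735200-01), from sites with the same base in both parents. At position 1137 of Os02t0735200-02, where C1137T was listed in R9308 at heading only, R9308 had 311 reads and Xieqingzao B 1184, a log2 ratio of -1.73. At position 1321 of Os02t0735200-01, its partner site 184 bases on, the reads were 163 and 624 and the log2 ratio -1.74. Neither site was called in R9308 at tillering or in the hybrid at either stage. The quality scores of R9308 at heading were 62 at position 1137 and 24 at position 1321. With these sites included, the ratio over all sites passed 2-fold, at -1.12 for Os02t0735200-02 and -1.05 for Os02t0735200-01. The line with the base other than the reference was the one with fewer reads there, and the part of mapping to the Nipponbare reference was not tested.

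The hybrid was then set against the mean of its parents. At heading 0 of the 10 transcripts were at least 2-fold higher in Xieyou9308 (background 6.62%) and 3 were at least 2-fold lower (6.71%), and at tillering 0 were higher (10.6%) and 3 lower (15.5%). These comparisons use the same pools as those above.

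Both ammonium transporters with rows were shallower in the hybrid. AMT1;3 had a log2 ratio of -1.49 at heading (-2.14 to -0.93) and -1.51 at tillering (-2.35 to -0.73), that is 2.81-fold and 2.85-fold lower. At its position 161, where all 3 genotypes have the same base, Xieyou9308 had 44 reads at heading, R9308 89 and Xieqingzao B 154, and at tillering they had 9, 49 and 69. At position 1627 at tillering the hybrid had 35 reads, R9308 33 and Xieqingzao B 65, so the shortfall was not the same at each site. AMT1;2 was at -1.81 at heading (-2.73 to -1.01) and at -1.55 at tillering (-4.72 to 0.56), where the hybrid had 2 reads.

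NRT2.3 Os01t0704100-02 was 11.1-fold lower in the hybrid at tillering, with a log2 ratio of -3.47 (-5.18 to -1.87), and at 0.42 at heading (0.24 to 0.61). The other transcript was at -0.52 at tillering (-2.47 to 1.30), and its position 1961 had 5 reads in Xieyou9308, 8 in R9308 and 6 in Xieqingzao B. The large shortfall was therefore listed at positions 171 and 244 of Os01t0704100-02 and not at position 1961. In NAR2.1, position 158 had a like shortfall at tillering, with 16 reads in Xieyou9308, 174 in R9308 and 244 in Xieqingzao B and a log2 ratio of -3.48, whereas position 1500 was at -0.57. In AMT1;3, positions 161 and 167 were at -2.48 and -2.45 at tillering, and positions 1627 and 1679 at -0.29 and -0.96. Apart from position 1127 of AMT1;3, at -2.97, the lowest sites lay near the transcript start. Other early sites were higher, with position 208 of NADH-GOGAT1 at 0.36 and positions 73 and 135 of Os01t0704100-01 at -1.06 and -0.55. Whether uneven coverage along transcripts in the hybrid's tillering pool lowered these ratios was not tested. NRT1.1B was at -1.55 at heading (-3.26 to -0.18), from 5 reads, and at -0.49 at tillering (-1.28 to 0.23). NADH-GOGAT1 was slightly deeper in the hybrid at both stages, at 0.27 at heading (0.04 to 0.49) and 0.36 at tillering (0.15 to 0.56), and Os02t0735200-01 and Os02t0735200-02 were at 0.40 and 0.25 at heading.

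**Figure D3:**
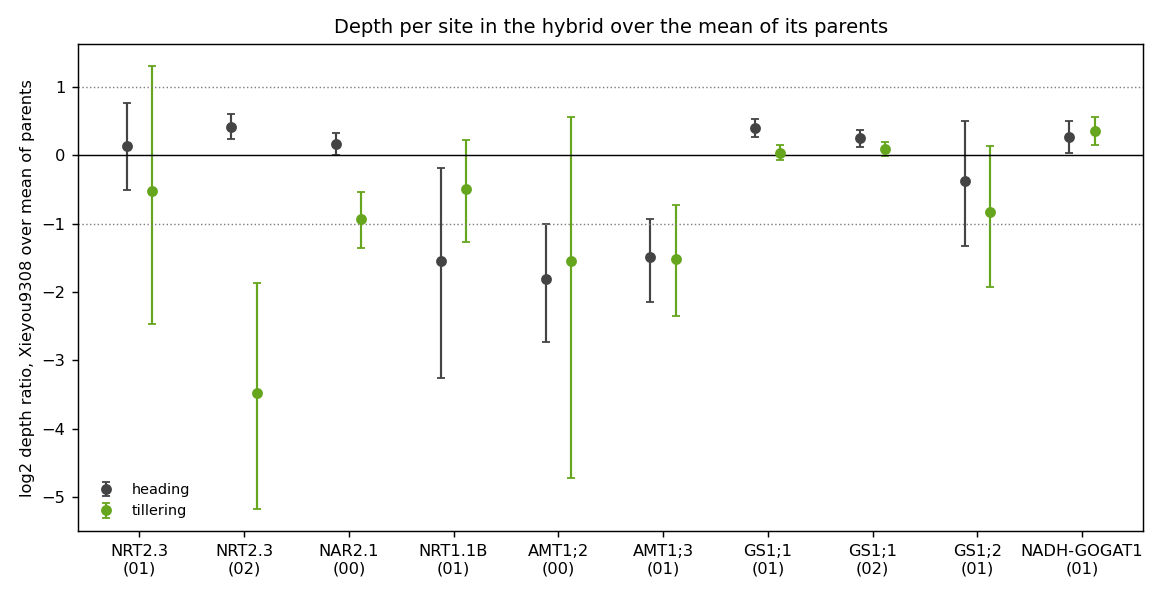
Log2 ratio of depth per site in Xieyou9308 over the mean of R9308 and Xieqingzao B, at heading and at tillering, for 10 transcripts (last digits of the identifier in brackets), with 95% counting intervals as bars and dotted lines at 2-fold. AMT1;3 lies below -1 at both stages, and NRT2.3 Os01t0704100-02 lies at -3.47 at tillering and 0.42 at heading.

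Allele reads in the hybrid were examined where the parents had different single bases. By the criteria of the methods (at least 10 reads in each parent and 20 in the hybrid and a quality score of at least 20, at both stages) 9325 SNPs were retained in the table and 0 of them lay in these genes, so no allelic bias and no stage difference could be tested under those criteria. Among all retained SNPs 17.1% had an exact binomial p below 0.01 at heading and 16.3% at tillering, and 2.66% differed between the stages by Fisher's exact test. Under the criteria at heading alone, 5 SNPs of these genes passed, 4 in NAR2.1 and 1 in AMT1;3. With p-values from the two-sided exact binomial test against 0.5 and Benjamini-Hochberg adjustment over all 17108 SNPs that passed at heading, 0 of the 5 were called at 0.01 (background 20.1%), and 0 had an adjusted p below 0.05. Without adjustment 1 of the 5, at position 158 of NAR2.1, had a p below 0.05.

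At position 158 of NAR2.1 the hybrid had 305 reads of the R9308 allele and 368 of the Xieqingzao B allele at heading, a share of 45.3% (Wilson interval 41.6% to 49.1%, exact binomial p = 0.017, adjusted p = 0.074). This is the deepest allele measurement of the set, and it lay near the parental share, in which R9308 made up 45.5% of the scaled depth (42.1% to 48.9%). With the share over all SNPs passing at heading, 50.7%, as the expectation, the exact p was 0.0055, and with a beta-binomial test that allows for spread beyond counting it was 0.63. At tillering the hybrid had 11 and 5 reads there, under the minimum, and 35.1% of the parental depth came from R9308.

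The next 3 SNPs of NAR2.1 had more even alleles in the hybrid than in the parents. At position 470 the hybrid had 54 and 37 reads of the R9308 and Xieqingzao B alleles, 59.3% (49.1% to 68.9%, exact binomial p = 0.093), against 94.2% of the scaled depth of the parents (90.2% to 96.7%). At position 502 the shares were 47.8% in the hybrid (38.8% to 56.9%), from 54 and 59 reads, and 91.7% in the parents (86.8% to 94.9%). At position 931 they were 38.8% (26.4% to 52.8%), from 19 and 30 reads, and 89.2% (81.2% to 94.1%). At these 3 sites the intervals of the hybrid and the parents did not overlap, and Xieqingzao B had 10 to 15 reads. The intervals hold counting error alone, and the share of all SNPs without such overlap was not computed. The difference between hybrid and parental shares was not tested, and reads that span neighbouring sites such as positions 470 and 502 are shared.

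In AMT1;3, position 1127 had 13 reads of the R9308 allele and 26 of the Xieqingzao B allele in the hybrid at heading, 33.3% (20.6% to 49.0%, exact binomial p = 0.053, adjusted p = 0.17), against 35.2% in the parents (29.3% to 41.5%). Position 800 had 9 and 9 reads at both stages (Wilson interval 29% to 71%), and R9308 made up 24.8% of the parental depth at heading and 29.9% at tillering. In AMT1;2, positions 519 and 552 had 9 and 5 and 10 and 6 reads of the R9308 and Xieqingzao B alleles at heading. None of the hybrid's read pairs in these genes was of the date-like kind whose order is in doubt.

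**Figure D4:**
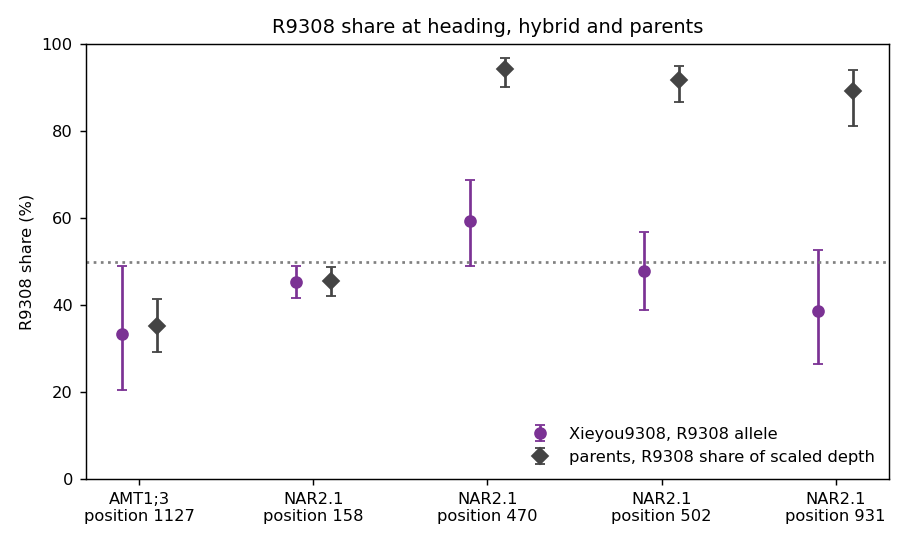
Share of the R9308 allele among hybrid allele reads (circles) and share of R9308 in the scaled depth of both parents (diamonds) at the 5 SNPs that passed at heading, in percent, with 95% intervals as bars and a dotted line at 50%. The shares of hybrid and parents lie together at position 1127 of AMT1;3 and position 158 of NAR2.1, and apart at positions 470, 502 and 931 of NAR2.1.

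Some sites listed a second base in an inbred parent. In R9308 at tillering, position 171 of NRT2.3 Os01t0704100-02 had 15 reference and 41 other reads, 26.8% reference (Wilson interval 17.0% to 39.6%), and position 244 had 11 and 37, 22.9% (13.3% to 36.5%). Positions 73 and 135 of the other transcript also listed 1 reference read each in that pool, of 5 and 11 reads. At heading R9308 listed 1 base at all 4 sites, with 419 reads at position 171, and so did Xieqingzao B and the hybrid at both stages. In Xieqingzao B at tillering, position 470 of NAR2.1 had 2 reads of the R9308 base and 9 of its own, and position 502 had a pair of 2 and 13, which is date-like. Pairs of bases are common in the table, at 35.0% of the sites called in R9308 at tillering and 28.5% in Xieqingzao B at tillering, against 9 of 36 and 9 of 41 sites of these genes.

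At position 1277 of GS1;1 Os02t0735200-02 the hybrid had 508 reference and 700 other reads at heading and 1187 and 1470 at tillering. Xieqingzao B carried C1277A, with 1836 reads at heading and 2062 at tillering. No call is listed for R9308 at either stage, so the origin of the reference reads in the hybrid was not assigned and no allele share is given.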

How the data were processed

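Reads of 12 root samples were filtered, trimmed and mapped by the authors with RSEM (v1.1.11) to the Nipponbare reference (IRGSP build 5.0). Reads from both roots of a genotype and stage were merged by the authors for SNP calling. The submitters' processing notes name CASAVA 1.8 and SAMtools 0.1.16, with the roles and the settings of SNP calling not given in the sources used here. The deposited table holds called bases, supporting reads (a pair, reference first, where 2 bases were called) and a quality score. Per the file headers the score is that of the SNP call.

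Sites were taken by the 9 identifiers, and the genes' names come from the list that chose them. The members and lists were chosen with earlier results of these data known. Sites the results turn on are described one by one and the others by counts or ranges. Depth ratios used the mean depth over sites called in all 6 pools, divided by pool totals. Intervals of ratios are exact binomial intervals on the mean depths rounded to whole reads, and the R9308 share of the parents was scaled by the pool totals. Date-like pairs have 1 to 12 reference reads and 13 or more other reads within the days of that month, and their order may have been exchanged by a spreadsheet. They made up 12 of the 47 pairs of these genes. The exact binomial test was checked on simulated reads drawn with counting error alone. Its rate of false calls under the wider spread of these data was not checked. The gene table at hand does not pair these identifiers, so no other nitrogen genes are described and no sequences are shown. The tools were scipy 1.17.1, numpy 2.4.6, pandas 2.3.3, matplotlib 3.10.9 and Python 3.11.15.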

Additional observations from a re-analysis of the deposited data

Results flagged for a closer look

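The parental ratio of NAR2.1 differed between the stages: R9308 over Xieqingzao B had a log2 depth ratio of 1.25 at heading and -1.11 at tillering, past 2-fold in opposite directions. The difference between the stages was not tested, because each value comes from 1 pool. Without the deepest site, position 1500, the values were 0.84 at heading and -0.95 at tillering.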

How the results depend on the processing

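Of 82 recomputed counts of these genes, 74 stayed within 1.5 times the original, and none of the called ratios changed sign under the alternatives run. Many of the 74 could not have moved. The allele counts started from 0 retained SNPs, so another test, another expected share or stricter criteria could only give 0 again. Dropping the minimum depth left the same transcripts. Restricted to sites with the same base in both parents, which left 7 transcripts, the number past 2-fold at heading over tillering was 3 in Xieyou9308, 2 in R9308 and 2 in Xieqingzao B, and 1 for the hybrid over its parents at tillering. The alternative has fewer transcripts by construction. With all sites called in the columns compared, R9308 over Xieqingzao B had 1 transcript past 2-fold at tillering and 3 at heading. Without the deepest site of each transcript, chosen after seeing the data, it had 0 at heading. Counting SNPs that pass only at heading gave 5 retained. For NAR2.1 the median depth per site gave a log2 ratio of heading over tillering of 4.10 in Xieyou9308, 4.72 in R9308 and 0.04 in Xieqingzao B, and of 3.37 for R9308 over Xieqingzao B at heading. Scaling by the median of ratios moved the median of all transcripts by 0.10 for heading over tillering in Xieyou9308 and by less in the other comparisons. With the overall share of 50.7% as the expectation, also chosen after seeing the data, position 158 of NAR2.1 passed 0.01. The cause of these shifts was otherwise not tested. Depth limits AMT1;2, GS1;2, NRT1.1B and NRT2.3 Os01t0704100-01, which had 2 to 66 mean reads in each pool. It also limits the hybrid ratios of NRT2.3 Os01t0704100-02 that use tillering, where the hybrid had 3.5 mean reads. No paired analysis was possible because the table merges the reads of each group's replicates, and for the same reason no replicate could be left out.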
